A study of Mus musculus with 6 samples.

Results

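Of the transmembrane AMPA receptor regulatory proteins, or TARPs, the genes Cacng2, Cacng3 and Cacng8 are described here as measured in hippocampal arrays. Other TARP genes with a probe set, Cacng4, Cacng5 and Cacng7, are given below among the related genes. The members described are 3 of the 12393 genes that a probe set names, with 1 probe set each among 22690. They were taken as every probe set whose annotation names exactly 1 gene symbol and whose symbol is one of these genes. The genes were chosen by the signals of these same arrays, in which Cacng2 and Cacng8 had been seen to be higher, and Cacng3 lower, on each of the Rsk2-KO arrays. Their differences between the labels are therefore given as a description, without a test. All 3 probe sets passed the filter on low signal described below, and no other probe set of these genes was among those annotated to a single symbol.

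The arrays carried RNA from the hippocampus of male mice 2 months old on a C57BL/6J background, 3 labelled Rsk2-KO and 3 labelled WT, the latter being littermates. Each array held a pool of 2 hippocampi, which the labels do not assign to animals, and the study asked which molecular pathways differ in expression without Rsk2. Rsk2 is a kinase downstream of ERK encoded by Rps6ka3 on the X chromosome; the labels name no Cre line or cell type to which the knockout is limited. Values are Affymetrix MAS5 signals on a linear scale in arbitrary units, scaled by the authors to the same trimmed mean in every array (100.034 to 100.037). Both groups are called by the label of the array throughout. Nothing in the labels says whether pools shared animals, so the spread between arrays may be partly technical.

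TARPs are four-pass membrane proteins that bind AMPA-type glutamate receptors, the receptors of fast excitatory transmission. They carry the receptors to the cell surface, anchor them at synapses through a C-terminal motif that binds PDZ scaffolds such as PSD-95, and slow the closing of the channel. Stargazin, the product of Cacng2, is the founding member, known from the stargazer mouse with its absence epilepsy and ataxia. TARP gamma-3, from Cacng3, is mainly a forebrain protein, and TARP gamma-8, from Cacng8, is the TARP most enriched in hippocampus, where its loss depletes AMPA receptors.

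In GRCm38.p6, Cacng2 lies on chromosome 15 at chr15:77991919-78120220 on the minus strand and spans 128.3 kb. Cacng3 and Cacng8 both lie on the plus strand of chromosome 7, at chr7:122671744-122769393 over 97.65 kb and chr7:3394042-3416266 over 22.23 kb. The 250 bases before the annotated starts of Cacng2 and Cacng8, from RefSeq on the same build, are shown 5′ to 3′ on the strand of the gene because these members differed between the labels in the same direction. The annotated start of Cacng2 in this table lies 940 bases inside the span given above, so its window is within the gene's span and not before it, whereas the Cacng8 window ends at the edge of the span. Capitals mark CG dinucleotides.
Cacng2, chr15:78119281-78119530: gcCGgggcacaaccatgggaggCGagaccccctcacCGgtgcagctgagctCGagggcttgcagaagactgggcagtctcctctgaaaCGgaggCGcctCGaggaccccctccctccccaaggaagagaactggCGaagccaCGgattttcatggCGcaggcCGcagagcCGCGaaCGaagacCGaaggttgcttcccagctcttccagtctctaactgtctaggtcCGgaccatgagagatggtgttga
Cacng8, chr7:3393792-3394041: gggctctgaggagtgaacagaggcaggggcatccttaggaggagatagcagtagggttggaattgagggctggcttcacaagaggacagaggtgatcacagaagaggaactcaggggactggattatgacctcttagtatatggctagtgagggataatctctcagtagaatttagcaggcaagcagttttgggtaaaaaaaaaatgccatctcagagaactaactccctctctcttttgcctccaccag

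The windows of Cacng2 and Cacng8, the members that were higher, were unlike in composition. That of Cacng2 held 16 CG dinucleotides at 62.0% G and C, and that of Cacng8 held 0 at 48.0%. Over the 32851 windows of this length in the RefSeq table, 92.1% held at least 1. The cAMP response element TGACGTCA, its core TGACG (which is part of it) and the GC box GGGCGG, searched on both strands, had 0 matches in both windows; they were found in 1.55%, 17.8% and 32.7% of all windows. The absence of these letters in 250 bases says nothing about the factors that bind them. The Cacng8 window ended in a run with 18 pyrimidines among 20 bases followed by AG, the pattern known from the ends of introns, and 57 of the 32851 windows (0.174%) ended in AG after at least as many. Whether transcription in hippocampus begins at this annotated start was not tested.

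Rps6ka3, the gene the label refers to, had a log2 difference (Rsk2-KO minus WT) of 0.37 at its brightest probe set (SE 0.18, limma adjusted p = 0.617) and so was no lower under the knockout label. On arrays 1 and 2 alone the value was 0.57, and between the arrays numbered 3 it was −0.04. The dimmer probe sets of Rps6ka3 were also above 0, both with overlap. They were at 0.54 (1427299_at, SE 0.37) and 1.46 (1452383_at, SE 0.86), the latter below the signal filter. The position of the probe sets along the disrupted gene is not known here, and these values do not check the labels. On the first principal component both arrays numbered 3 lay far from the rest (scores of 20.03 and 23.6 against −15.6 to −6.36). The members are therefore also given within the arrays numbered 1 and 2 and between those numbered 3. The related genes are counted in the same way. On the second component the labels lay apart at numbers 1 and 2 (17.4 and 13.7 against −19.4 and −12.4) but close at number 3 (1.32 against −0.55). The ratio of beta-actin control probe sets was 2.24 on Rsk2-KO 3, 2.22 on WT 3 and at most 1.63 elsewhere. That of Gapdh was 0.823 on WT 3 but 0.774 on Rsk2-KO 3, within the 0.719 to 0.783 of the rest. Whether RNA quality or labelling set the arrays numbered 3 apart was not tested. Of the hippocampal neuron markers, all 8 with a probe set passed the signal filter, Prox1 of the dentate gyrus and Wfs1 of CA1 among them.

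**Figure D1:**
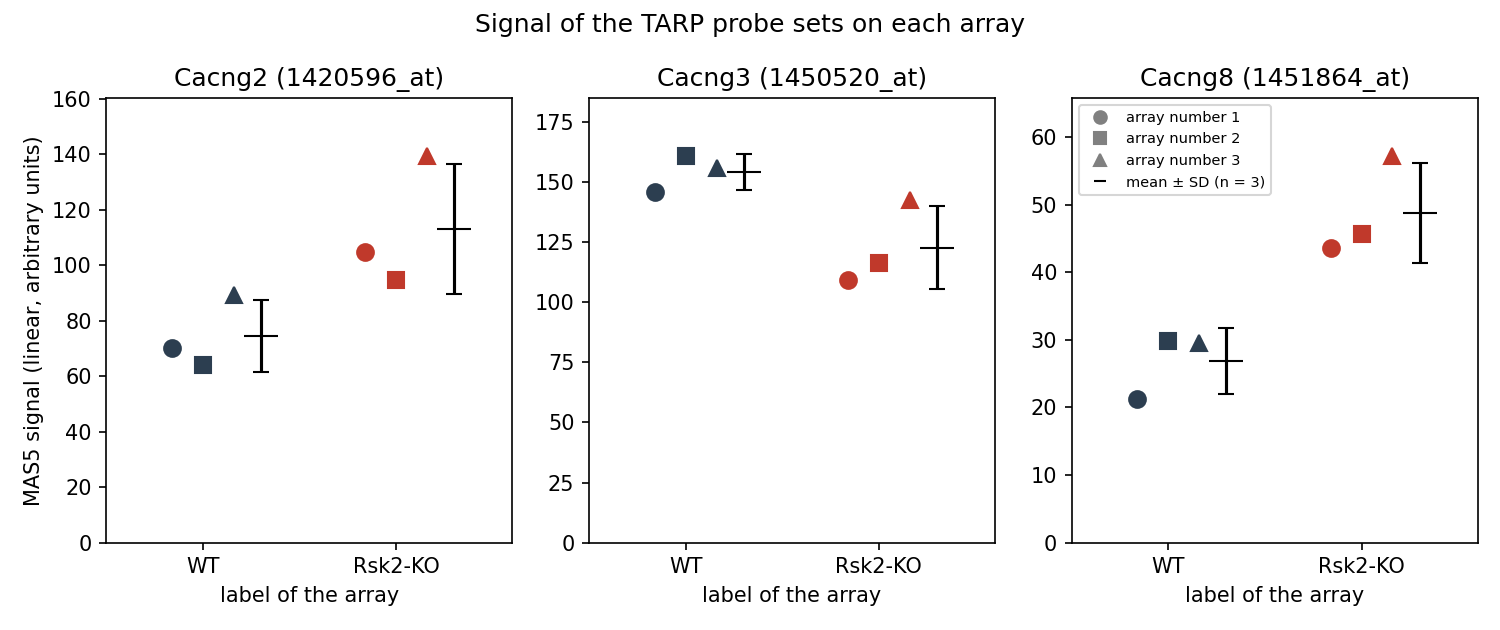
MAS5 signal (linear, arbitrary units) of the probe sets of Cacng2, Cacng3 and Cacng8 on the 3 arrays of each label. The mean and SD are beside the points and the array number is the symbol. Cacng2 and Cacng8 were higher on every Rsk2-KO array than on any labelled WT, and Cacng3 was lower on every one, with Rsk2-KO 3 at 143 just below the lowest WT array at 146.

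Cacng8 had the largest difference of the 3. Probe set 1451864_at read 43.5, 45.6 and 57.2 on Rsk2-KO arrays 1, 2 and 3, and 21.2, 29.8 and 29.5 on WT 1, 2 and 3. The groups did not overlap, and 13.7 units lay between the highest WT and the lowest Rsk2-KO array. The mean was 48.8 ± 7.38 on Rsk2-KO and 26.8 ± 4.88 on WT arrays (SD, n = 3 each). The corresponding log2 difference was 0.87 (SE 0.24), or 1.83-fold. By size of difference Cacng8 ranked 39 among the 7866 genes compared. WT 1 had the lowest value, and without it the log2 difference was 0.71. With the mean signal near the middle of all probe sets (percentile 50.5), this was the dimmest member, and every array was above the filter of 19.2.

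Cacng2, at probe set 1420596_at, read 105, 94.7 and 139 on the Rsk2-KO arrays, and the WT arrays read 70.3, 64.1 and 89.2. The ranges did not overlap, but the highest WT array, WT 3, lay only 5.48 units below Rsk2-KO 2. In both groups the array numbered 3 was the highest. Mean signals were 113 ± 23.4 and 74.6 ± 13.1 (SD, n = 3 each). This is a log2 difference of 0.60 (SE 0.20) or 1.51-fold, rank 227 of 7866 by size.

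For Cacng3, probe set 1450520_at read 109, 117 and 143 on the Rsk2-KO arrays against 146, 161 and 156 on the WT arrays. Every Rsk2-KO array was below every WT array, with Rsk2-KO 3 within 3.54 units of WT 1. The WT arrays lay close together and the Rsk2-KO arrays did not, with means of 154 ± 7.59 and 123 ± 17.4 (SD, n = 3 each). The log2 difference was −0.34 (SE 0.15), a level 1.26-fold higher in WT, and it ranked 1447 of 7866 by size. Signals of different probe sets cannot be set against each other, so these values give no order of abundance among the TARPs.

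All 3 members therefore had groups that did not overlap. Over all genes compared, this was so for 5.47% in the higher direction and 8.76% in the lower, 14.2% in all. The members were picked for this property, so their count is no evidence beyond it. Across all genes, limma called 0 higher and 0 lower at an adjusted p of 0.05 (0% in each direction); 589, or 7.49%, had an unadjusted p under 0.05.

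The members were chosen with every Rsk2-KO array beyond every WT array, which fixes the sign of their differences at each array number, so the sizes alone are described here. Cacng2 differed by 0.58, 0.56 and 0.64 on the log2 scale between the arrays numbered 1, 2 and 3. Cacng8 differed by 1.04, 0.61 and 0.96. Cacng3 differed by −0.42 and −0.47 between the arrays numbered 1 and 2 and by less, −0.13, between those numbered 3. Within the arrays numbered 1 and 2 together the log2 differences were 0.57 for Cacng2, 0.83 for Cacng8 and −0.44 for Cacng3.

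**Figure D2:**
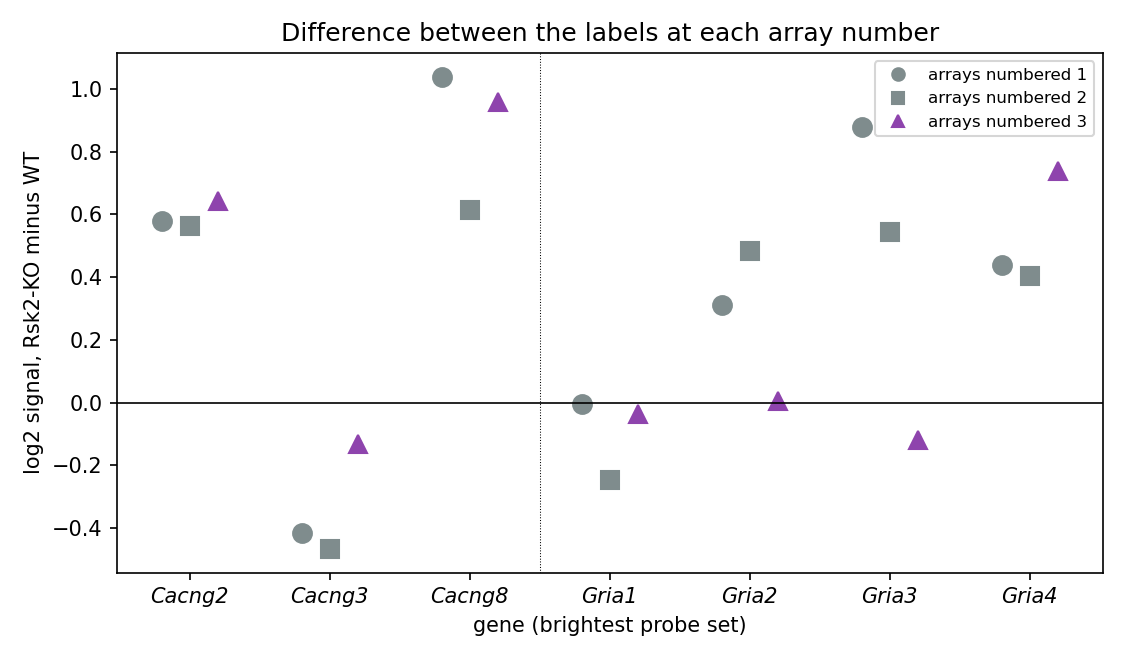
Log2 signal on the array labelled Rsk2-KO minus that on the WT array of the same number, for the TARP members and, right of the dotted line, the AMPA receptor subunits at their brightest probe sets. At number 3 (triangles) Cacng2 and Cacng8 were at 0.64 and 0.96, while Gria2 was at 0.0050 and Gria3 at −0.12.

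A difference between 2 probe sets taken within an array does not depend on a common factor by which an array was scaled. Relative to its mean over the WT arrays, log2 Cacng8 minus log2 Cacng3 was 1.21, 1.19 and 1.22 on Rsk2-KO 1, 2 and 3 and ran from −0.24 to 0.14 on the WT arrays. The 3 arrays labelled Rsk2-KO were closer together on this measure (SD 0.018) than on Cacng8 alone (SD 0.21 on the log2 scale). The WT arrays were not as close, with an SD of 0.21 on this measure. On WT arrays Cacng8 alone had an SD of 0.28 and Cacng3 alone 0.072. Cacng2 minus Cacng3 ran from 0.76 to 1.03 on the Rsk2-KO arrays and from −0.27 to 0.26 on the WT arrays. For Cacng8 minus Cacng2 the groups overlapped, at 0.19 to 0.42 against −0.25 to 0.37. The separation of the labels for Cacng3 set against either other member follows from the choice of genes with opposite directions and is no result. The overlap for Cacng8 minus Cacng2 was not fixed in this way. The choice of both genes as higher favours it, so it is no result either.

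Profiles over the 6 arrays were also compared by the root mean square difference of log2 signals after each gene was centred on its own mean. Cacng2 and Cacng8 differed by 0.25 on this measure, Cacng2 and Cacng3 by 0.50, and Cacng3 and Cacng8 by 0.62. The members were chosen by their directions on these arrays, so the order of these values largely follows from that choice and is no result. The gene nearest to Cacng2 among all 7866 was Gria4, the AMPA receptor subunit GluA4, at 0.075. Its signals were 26.7, 23.1 and 36.3 on the Rsk2-KO arrays and 19.7, 17.5 and 21.8 on the WT arrays, so that it too was highest on the array numbered 3 in each group. Abce1, a ribosome recycling factor, and Klhl24, a BTB-kelch protein, followed at 0.089 and 0.096.

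Nearest to Cacng3 were Pnpla2, a triglyceride lipase, at 0.036, Vps11, a subunit of the endosomal HOPS and CORVET tethering complexes, at 0.041, and Tef, a PAR bZIP transcription factor, at 0.042. Nearest to Cacng8 were Igf1, a growth factor, at 0.13, Ap5m1, a subunit of the AP-5 adaptor, at 0.15, and Pam, the enzyme that amidates neuropeptides, at 0.16. The neighbours of Cacng8 were more distant than those of the other members, and Cacng8 itself varied more over the arrays (0.48 from its own mean, against 0.37 for Cacng2 and 0.21 for Cacng3). Only 6 arrays underlie each profile, and the neighbours were drawn from many genes. A near profile needs a similar difference between the labels. That the neighbours share the direction of their member, Gria4 included, is therefore no evidence of a link between the genes.

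**Figure D3:**
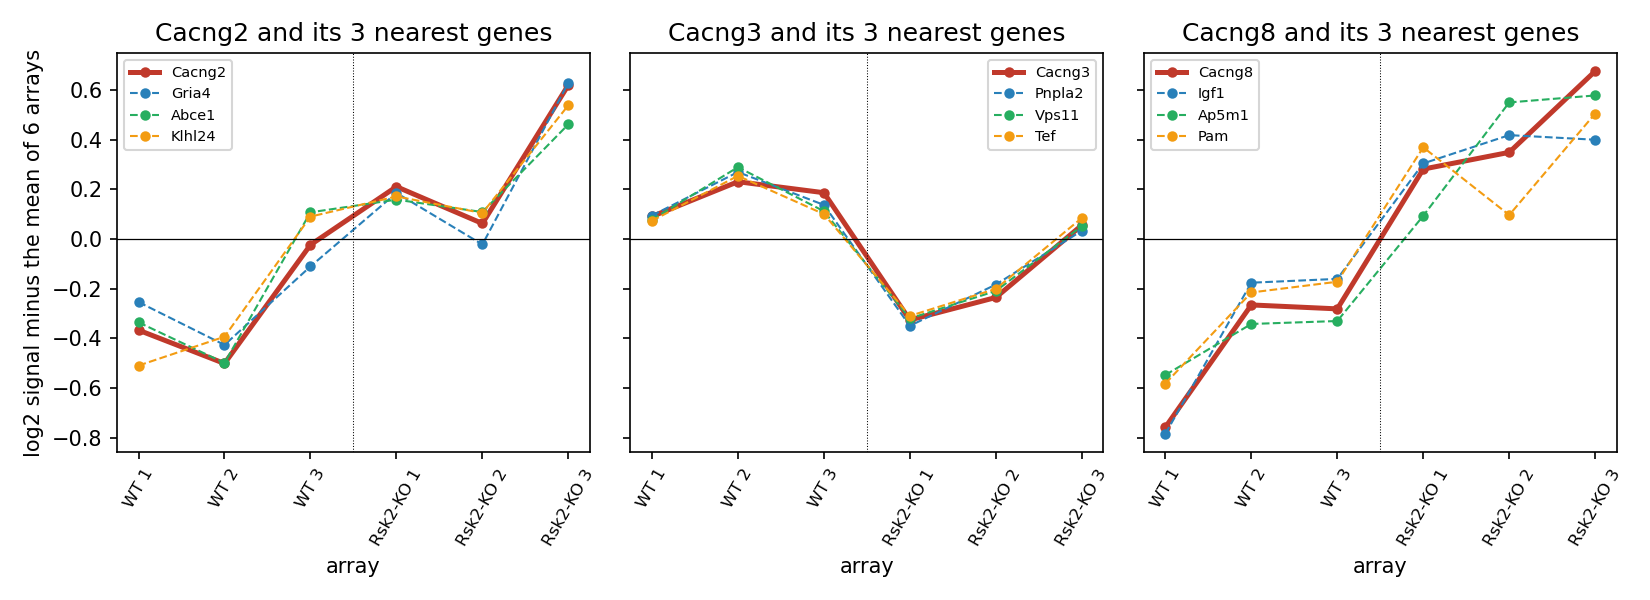
Log2 signal minus the mean of the 6 arrays, by array, for Cacng2, Cacng3 and Cacng8 (thick red lines). Dashed lines are the 3 genes with the most similar profile to each. Cacng2 and Gria4 were both highest on Rsk2-KO 3, and the genes nearest to Cacng3 were lowest on Rsk2-KO 1.

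Other members of the gamma subunit family were mostly too dim to compare. Cacng4 and Cacng7, which encode TARPs gamma-4 and gamma-7, had mean signals of 18.2 ± 4.01 and 20.9 ± 6.44 on the Rsk2-KO arrays and 16.4 ± 4.96 and 16.6 ± 1.00 on the WT arrays (SD, n = 3 each); their mean log2 signals were below the filter, as were both probe sets of Cacng6 and that of Cacng1, gamma subunits known from skeletal muscle. Cacng5, the TARP gamma-5, was the 1 other gene of the family above it. Its log2 difference was −0.09 (SE 0.32, adjusted p = 0.948), and its signals overlapped, from 16.02 to 34.2 on the Rsk2-KO arrays and from 25.4 to 31.2 on the WT arrays. The sign rested on the arrays numbered 3, at −0.69 for that pair against 0.21 on arrays 1 and 2. No statement is possible on whether the dim genes moved with Cacng2 and Cacng8.

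Of the genes that work with TARPs, 83 were listed in 8 groups, 67 had a probe set and 60 were above the filter. None of the 60 was called higher or lower by limma. An unadjusted limma p under 0.05 was found for 3, all higher, against 318 higher and 271 lower among all 7866 genes. The median log2 difference of the 60 was −0.03, against −0.04 for all 7866 genes. Of the 60, 29 were above and 31 below 0, and of all 7866 genes, 3427 were above and 4439 below. Non-overlapping groups were found for 3 of the 60 higher and 2 lower. Over all 7866 genes these were 430 higher (5.47%) and 689 lower (8.76%). Within the arrays numbered 1 and 2, 32 of the 60 were above 0, and between those numbered 3, 26 were. For 9 of the 60 the sign on all arrays was not that within the arrays numbered 1 and 2. The values below are as measured, and none passed the adjusted test on all 6 arrays.

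The pore-forming subunits that TARPs escort had log2 differences of −0.09 (SE 0.16) for Gria1, 0.27 (SE 0.15) for Gria2, 0.43 (SE 0.19) for Gria3 and 0.53 (SE 0.27) for Gria4, with adjusted p from 0.617 to 0.861. At these brightest probe sets Gria4 was the 1 subunit without overlap between the groups. A dimmer probe set of Gria1 had the opposite sign, at 0.44. A dimmer probe set of Gria2, 1453098_at, read 423, 371 and 294 on the Rsk2-KO arrays and 132, 158 and 250 on the WT arrays, without overlap. Its log2 difference of 1.05 (SE 0.24, limma adjusted p = 0.661 over all probe sets) was larger than those of the brightest probe sets of the subunits; arrays 1 and 2 gave 1.46 and the pair numbered 3 gave 0.23. At number 3, where Cacng2 and Cacng8 were at 0.64 and 0.96, the brightest probe sets of Gria2 and Gria3 were at 0.0050 and −0.12 and that of Gria4 at 0.74.

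Of the other AMPA receptor auxiliary proteins, 5 of 6 had a difference below 0, like Cacng3 and unlike Cacng2 and Cacng8, and none passed the test. Cnih2, a cornichon that binds the same receptors and is known to act with TARP gamma-8, had signals of 629, 675 and 786 on the Rsk2-KO arrays and 876, 872 and 784 on the WT arrays, a log2 difference of −0.28 (SE 0.14, adjusted p = 0.617). Between the arrays numbered 3 it differed by 0.0026. Cnih3 (−0.10), the secreted Olfm1 (−0.20), Prrt1 or SynDIG4 (−0.19) and the pentraxin Nptx1 (−0.03, SE 0.31) were also below 0. A slightly dimmer probe set of Nptx1, 1422130_at, was at −0.42 with overlap (SE 0.18, limma adjusted p = 0.661 over all probe sets). There arrays 1 and 2 gave −0.63 and the pair numbered 3 gave 0.00035. The related pentraxin Nptx2 differed by 0.79, with an SE of 0.49 and signals that overlapped, from 22.5 to 38.5 on the Rsk2-KO arrays and from 6.88 to 31.1 on the WT arrays. That value rested on the pair that stood apart: for Nptx2 the pair numbered 3 gave 2.48 and arrays 1 and 2 gave −0.06, and without WT 3 the difference was 0.18. The median of these 6 genes was −0.14 on all arrays and −0.20 within the arrays numbered 1 and 2, where all 6 were below 0. Between the arrays numbered 3 it was 0.17, with 5 above 0. In receptor biogenesis, the median of 4 genes was −0.14, with the lipid phosphatase Sacm1l at 0.44 (SE 0.19), the acyltransferase Porcn at −0.24 and Abhd12 at −0.18.

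The PDZ scaffolds that hold TARPs at synapses had a median of 0.21, with 5 of 6 above 0, and of −0.03 between the arrays numbered 3, with 2 above. Dlg4, which encodes PSD-95, gave 283, 284 and 286 on the Rsk2-KO arrays and 196, 203 and 249 on the WT arrays, a log2 difference of 0.40 (SE 0.14, adjusted p = 0.617). Within the arrays numbered 1 and 2 Dlg4 differed by 0.51, and between those numbered 3 by 0.20. The 2 dimmer probe sets of Dlg4 differed by 0.37 and 0.04, both with overlap. Magi1 and Dlg2 differed by 0.34 (SE 0.24) and 0.24 (SE 0.20).

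In trafficking, subunits of the AP-2 adaptor, which binds the TARP tail, had both signs, with Ap2a1 at −0.35 (SE 0.17) and Ap2b1 at 0.34 (SE 0.17); Arc, which promotes AMPA receptor endocytosis, was at −0.57 (SE 0.30) with signals from 64.8 to 164 on the Rsk2-KO arrays. The median of these 13 genes was −0.06. Among the kinases and phosphatases of the TARP tail the median of 14 genes was −0.04, and the examples with the smallest p were Camk2a, the kinase of synaptic plasticity, at 0.49 (SE 0.23), Prkaca at −0.33 (SE 0.16) and Ppp1ca at −0.22 (SE 0.14). The 12 other calcium channel subunits, to which the Cacng genes owe their name, had a median of 0.05, with Cacna2d1 at 0.34 (SE 0.19), Cacna2d2 at −0.77 (SE 0.51) and Cacna1c at −0.40 (SE 0.27). Rsk2-KO 3 carried the values of the last pair: without it Cacna2d2 was at −0.05 and Cacna1c at −0.09, and without both arrays numbered 3 they were at 0.15 and −0.11. For Cacna2d1, arrays 1 and 2 gave 0.55 and the pair numbered 3 gave −0.10.

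Without both arrays numbered 3, limma called 235 of 7862 genes higher (2.99%) and 52 lower (0.661%), with 2 arrays a group. Of the 60 related genes, 4 were called higher, 6.67%: Gria3 at 0.71 (adjusted p = 0.0400), Sacm1l at 0.58 (adjusted p = 0.0421), Cacnb4, a calcium channel beta subunit, at 0.74 (adjusted p = 0.0434) and Camk2a at 0.82 (adjusted p = 0.0463). None was called lower. Between the arrays numbered 3 the same genes were at −0.12, 0.16, −0.13 and −0.19.

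**Figure D4:**
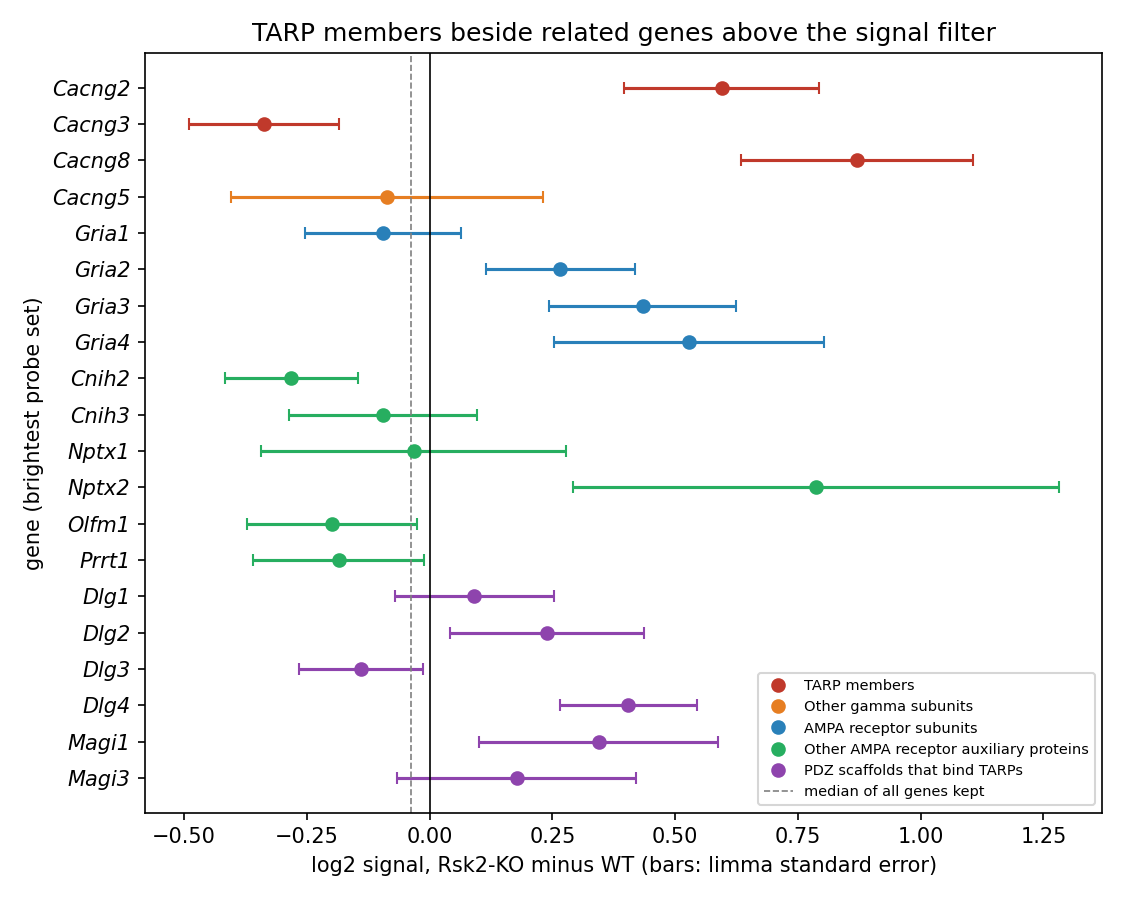
Log2 difference between the labels (Rsk2-KO minus WT, bars are limma standard errors, n = 3 arrays each) for the TARP members and the related genes of 4 groups that passed the signal filter. Cacng8 at 0.87 and Cacng2 at 0.60 lie right of 0 and Cacng3 at −0.34 left of it, and the dashed line is the median of all genes, −0.04.

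Markers of other cells were read from the same arrays, since in whole tissue fewer cells of a type and less RNA per cell cannot be told apart. Summed signals of 8 hippocampal neuron markers were 1355 to 1747 on the Rsk2-KO arrays and 1333 to 1341 on the WT arrays, higher without overlap. Each of these markers alone overlapped between the labels, such as Neurod6 (183 to 523 against 122 to 329) and Zbtb20 (338 to 416 against 238 to 479). Neurod6 and Camk2a were among the markers above 0, at 0.59 and 0.49, and Prox1 and Neurod2 were below it, at −0.28 and −0.23. Summed signals of 8 microglia markers were lower without overlap, at 1233 to 1250 against 1359 to 1382. Of these, 6 were below 0, with Trem2 at −1.07 and Tyrobp at −0.32, and 2 were above, Cx3cr1 at 0.65 and Itgam at 0.28. Csf1r, the brightest marker in that sum, overlapped between the labels, at 536 to 621 on the Rsk2-KO arrays and 599 to 716 on the WT arrays. The part of either in the TARP differences was not tested. In cerebellum Cacng2 is strongly expressed. Gabra6 and Pcp2, markers of cerebellar granule and Purkinje cells, were at 0.70 to 5.87 and 1.21 to 21.0 across all arrays, below the filter on average. The summed signal of 5 cerebellar markers overlapped (734 to 1019 against 662 to 918), but all 5 had a log2 difference above 0. Most of that sum was Calb1, at 601 to 913 across all arrays, with a log2 difference of 0.09. At array numbers 1, 2 and 3 the sum was 738, 734 and 1019 on Rsk2-KO and 667, 662 and 918 on WT. The part of these markers in the TARP differences was not tested. Summed signals overlapped between the labels for markers of interneurons (3137 to 3545 against 3023 to 3565), oligodendrocytes (4950 to 5364 against 4377 to 6009), astrocytes (2365 to 2915 against 2282 to 2621), endothelium (373 to 408 against 398 to 459), striatum and thalamus (342 to 475 against 332 to 414) and neocortex (300 to 405 against 340 to 393).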

How the data were processed

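Groups and array numbers come from the sample titles. The authors deposited 1 linear signal intensity per probe set and array; the submitters' processing notes name MAS5, and its version is not given in the sources used here. The 2% trimmed mean was equal in every array, which takes out any difference in total RNA, and MAS5 signals near background are noisy. No array was a copy of another (identical signals in at most 1 probe set).

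Log2 signals were used without further normalization. Probe sets under the 40th percentile of mean log2 signal (19.2) were left out, and the brightest probe set stood for each of the 7866 genes left. The labels were compared in limma 3.58.1 in R 4.3.3 (lmFit, eBayes with intensity trend, two-sided, Benjamini-Hochberg over all genes), tested on simulated data; standard errors are limma's. Sequences were read with Python 3.11.15. Related genes without a probe set under 1 symbol, such as Shisa9 and Magi2, were not analysed here.

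The members and lists were chosen with earlier results of these data known. Genes named were Rps6ka3, the members, all measured genes of the gamma subunit, AMPA subunit and auxiliary lists, up to 3 genes with the smallest p of the other lists and the 3 nearest in profile to each member. Named after their values were seen were the genes called without the arrays numbered 3, single markers and dimmer probe sets. Alternatives tried were offsets of 16 and 64, quantile normalization, centring on the median, other filters, array weights, no trend, a replicate block, means over probe sets, and arrays left out.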

Additional observations from a re-analysis of the deposited data

How the results depend on the processing

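For members chosen without overlap, the sign cannot change with arrays left out or weighted, an offset, the replicate block or, with 1 probe set each, a mean over probe sets. Quantile normalization and centring on the median could change it and did not, with Cacng2 at 0.57 and 0.56, Cacng3 at −0.36 and −0.37 and Cacng8 at 0.83 and 0.84. With 1 array left out, Cacng2 ran from 0.43 to 0.73, Cacng3 from −0.45 to −0.26 and Cacng8 from 0.71 to 0.96. A filter at the 60th percentile left out Cacng8, whose mean signal was at percentile 50.5. An offset added before the log shrinks dim genes by construction: Cacng8 became 0.60 with an offset of 16 and 0.31 with 64, and Cacng2 became 0.35 with 64. Between the arrays numbered 3 alone, Cacng3 was −0.13; the cause was not tested. The count of genes called, 0 on all arrays, was 16 with array weights (12 higher, 4 lower), 1 with the replicate block and 287 without both arrays numbered 3; it was 0 to 0 with 1 array left out, and 0 under the other alternatives. Of related genes, 4 were called without both arrays numbered 3, 0 to 0 with 1 array left out and 0 otherwise. Same-numbered arrays correlated in their deviations from the group means by 0.074, 0.37 and 0.40 at numbers 1, 2 and 3. The highest correlation with an array of the other label and another number was 0.20, 0.20 and −0.10. Arrays of numbers 2 and 3 were thus more alike than arrays of different numbers, and those of number 1 were not. The labels state no pairing, so the main fit left the numbers out. With 1 array of each label at each number the replicate block cannot move a difference (0.60, −0.34 and 0.87), only its error. With 3 arrays a group, their number limits the precision.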

Other observations

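Some related genes gave another picture at their dimmer probe sets, a comparison made after the values were seen. Above the filter, 39 probe sets of 31 related genes were not the brightest of their gene; 6 were higher on every Rsk2-KO array (15.4%) and 1 was lower (2.56%), against 6.8% and 6.44% of 4690 such probe sets over all genes. Those higher belonged to Gria2, Grip1, Prkcb, Dlg1, Cacnb4 and Cacna1a, and the lower one to Abhd12. Cacnb4 at 1452089_at gave 64.1, 71.5 and 67.2 on the Rsk2-KO arrays and 28.3, 37.9 and 43.4 on the WT arrays, a log2 difference of 0.91, where its brightest probe set gave 0.45 with overlap. Grip1, a PDZ protein that binds AMPA receptor subunits, differed by 0.82 at 1421350_a_at and by 0.54 with overlap at its brightest. Cacna1a was 0.52 at the dimmer and −0.30 at the brightest, the latter being −1.12 for the pair numbered 3 and 0.11 on arrays 1 and 2. Cacng2, Cacng3 and Cacng8 have a single probe set each, so no second measurement bears on them.

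The summed signal of 5 choroid plexus markers ran from 565 to 2194 over the arrays and followed neither label, with Ttr at 504 on Rsk2-KO 2 and 2122 on WT 3.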
